A study of Homo sapiens with 2 samples.

Results

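The genes described here are 9 known transcriptional targets of the tumour suppressor p53, namely CDKN1A, MDM2, GADD45A, PPM1D, TP53INP1, SESN1, AEN, TRIAP1 and ZMAT3. The cells were CL1-0, an established line from a human adenocarcinoma of the lung. On Affymetrix expression arrays, 1 array held RNA after 6 h with an antibody against FSTL1, a glycoprotein that cells secrete, and 1 held RNA at 0 h of the same treatment. Per the labels' protocols the cells were stably transduced and had been kept in puromycin, with the same protocol given for both arrays, and what was transduced is unknown here. Members were found as all probe sets whose platform annotation names 1 of the 9 genes and no other gene. That gave 25 of the 54675 probe sets of the array, for 9 of 19775 genes with a probe set of their own.

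With 1 array at each time, no difference below has a replicate, and none was tested. Cells kept for 6 h without the antibody were not analysed here, and the antibody cannot be told apart from time in culture and handling. The only measures of error come from within the arrays. For 6122 genes with several measured probe sets, the log2 differences of the sets of one gene had a pooled SD of 0.16; sets of a gene are not replicates. The 18 hybridisation spike probe sets differed by -0.15 to 0.14 between the arrays, with a median of -0.02. The array medians were 44.9 at 6 h and 45.8 at 0 h. The labels call the cells type II alveolar cells. Of 8 markers of that type with a probe set, 5 lay above background, beside 12669 of 19775 genes over the whole array. Of markers of other cell types, 2 of 6 for fibroblasts, 1 of 5 for leukocytes and 1 of 5 for endothelium did so. The fibroblast gene COL1A1 was at 179.4 at 6 h and 230.1 at 0 h on its brighter set. Its 2 measured sets differed by -0.36 and 0.94 on the log2 scale. These counts do not settle the cell type. Of the type II markers the highest was ABCA3, at 207.9 at 6 h and 173.4 at 0 h. SFTPB was at 132.7 at 6 h and 103.8 at 0 h, and SFTPC at 92.3 at 6 h and 113.3 at 0 h. These are the brightest sets. On the log2 scale the 3 measured sets of SFTPB differed by -0.39 to 0.35, and the 4 of SFTPC by -0.30 to 0.02. NKX2-1 and NAPSA were dimmer, and SFTPD, LAMP3 and SLC34A2 lay below background on both arrays. Of 6 epithelial markers KRT18 (120.9 at 6 h and 148.2 at 0 h) and KRT8 (52.4 at 6 h and 48.1 at 0 h) lay above background, and EPCAM, CDH1, KRT19 and CLDN4 below it on both arrays.

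The transcription factor p53 is stabilised by DNA damage and other stresses and then switches on genes that halt the cell cycle, repair DNA, restrain growth or start cell death. Its best known arrest target is CDKN1A, which encodes the cyclin-dependent kinase inhibitor p21. Some targets feed back on the pathway: MDM2 is the ubiquitin ligase that sends p53 for degradation, and PPM1D is a phosphatase (Wip1) that removes activating phosphates from p53 and its upstream kinases. Several of these genes also respond to other stress factors, GADD45A among them. Transcript levels of targets do not measure the activity of the protein.

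Promoter sequence shows where the letters of a p53 site lie among these genes. Of the 9 members, 7 had at least 1 entry in a RefSeq promoter table (GRCh38.p14), with 13 start sites in all, and the 250 bases before each start were searched on both strands. The p53 half-site consensus was present in 2 of the 13 windows, against 5.57% of all 35116 windows of the table. A pair of half-sites was also sought, with at most 2 mismatches in all and a spacer of at most 13 bases. The core C and G of both sites had to be kept. Such a pair was present in 3 windows, against 2.49% of all windows. Of these 3, 2 were overlapping MDM2 windows with the same letters, so the pair lay in 2 members. This pair rule was chosen after the sequences were seen. Of the 4 windows below, those of MDM2, AEN and SESN1 hold such letters, and that of PPM1D holds a cyclic AMP response element and neither p53 match. They come from members that lay on both sides of 0 in the array comparison described next. Capitals mark letters that met the half-site or pair rule in MDM2, AEN and SESN1, and the response element TGACGTCA in PPM1D. The pairs of MDM2 and AEN each hold 2 mismatches. Letters that come close to a p53 site but miss these rules stay in lower case.
MDM2, internal start, chr12:68808767-68809016, plus strand: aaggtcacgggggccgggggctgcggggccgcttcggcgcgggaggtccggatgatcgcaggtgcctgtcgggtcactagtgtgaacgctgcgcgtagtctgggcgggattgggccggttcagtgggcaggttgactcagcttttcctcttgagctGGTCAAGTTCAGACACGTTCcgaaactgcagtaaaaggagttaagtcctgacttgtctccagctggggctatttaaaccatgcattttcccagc
AEN, chr15:88621090-88621339, plus strand: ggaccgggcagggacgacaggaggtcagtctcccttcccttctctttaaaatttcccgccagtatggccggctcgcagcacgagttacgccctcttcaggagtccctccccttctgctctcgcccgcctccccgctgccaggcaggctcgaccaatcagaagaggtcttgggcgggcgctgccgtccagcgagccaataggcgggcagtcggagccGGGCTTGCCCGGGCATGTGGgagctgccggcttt
SESN1, start furthest downstream, chr6:109008989-109009238, minus strand: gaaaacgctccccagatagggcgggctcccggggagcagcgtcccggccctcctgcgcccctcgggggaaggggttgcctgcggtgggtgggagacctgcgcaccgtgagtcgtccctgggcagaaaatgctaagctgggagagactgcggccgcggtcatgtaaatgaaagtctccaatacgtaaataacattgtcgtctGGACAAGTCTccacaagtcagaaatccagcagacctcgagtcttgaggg
PPM1D, chr17:60599943-60600192, plus strand: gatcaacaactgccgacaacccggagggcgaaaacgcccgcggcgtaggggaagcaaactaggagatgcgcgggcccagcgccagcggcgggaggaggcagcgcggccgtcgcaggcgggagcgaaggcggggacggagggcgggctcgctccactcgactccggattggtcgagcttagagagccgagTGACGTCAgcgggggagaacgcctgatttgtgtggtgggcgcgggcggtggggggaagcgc

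In MDM2 the pair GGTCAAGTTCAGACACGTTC has no spacer and spans bases -94 to -75 from the internal start. An overlapping MDM2 window holds the same letters. The pair in AEN, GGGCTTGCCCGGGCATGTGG, spans bases -34 to -15, and the first of the pair is also an exact half-site. The half-site GGACAAGTCT of SESN1 lies at -49 to -40. The cyclic AMP response element of PPM1D, searched after the sequences were seen, lies at -61 to -54 and occurs in 1.65% of all windows. For 13 windows the other motifs gave counts close to the share of all windows. The cell cycle element TTTGAA was in 1 of 13 windows (a ZMAT3 start) against 13.3% of all windows. The amino acid response core TGATGNAA was in 0 of 13 against 3.14%, and the TATA box TATAAA in 0 of 13 against 10.7%. These matches describe letters in a window of fixed length and say nothing of binding.

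The comparison asks how each target differed between 6 h with the antibody and 0 h. The 9 genes did not move as a group. GADD45A, PPM1D and TP53INP1 were higher at 6 h by 1.28- to 1.33-fold, CDKN1A, AEN and TRIAP1 were lower, SESN1 and ZMAT3 were nearly equal on both arrays, and the probe sets of MDM2 disagreed. Values are intensity on a linear scale as the authors deposited them. Intensities under 45.4, the median of all values of both arrays, were taken as background and set to that floor before log2 differences (6 h minus 0 h) were formed. Of the 25 member probe sets 17 were above the floor, and all 17 were so on both arrays, so no difference of a member is a bound.

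**Figure D1:**
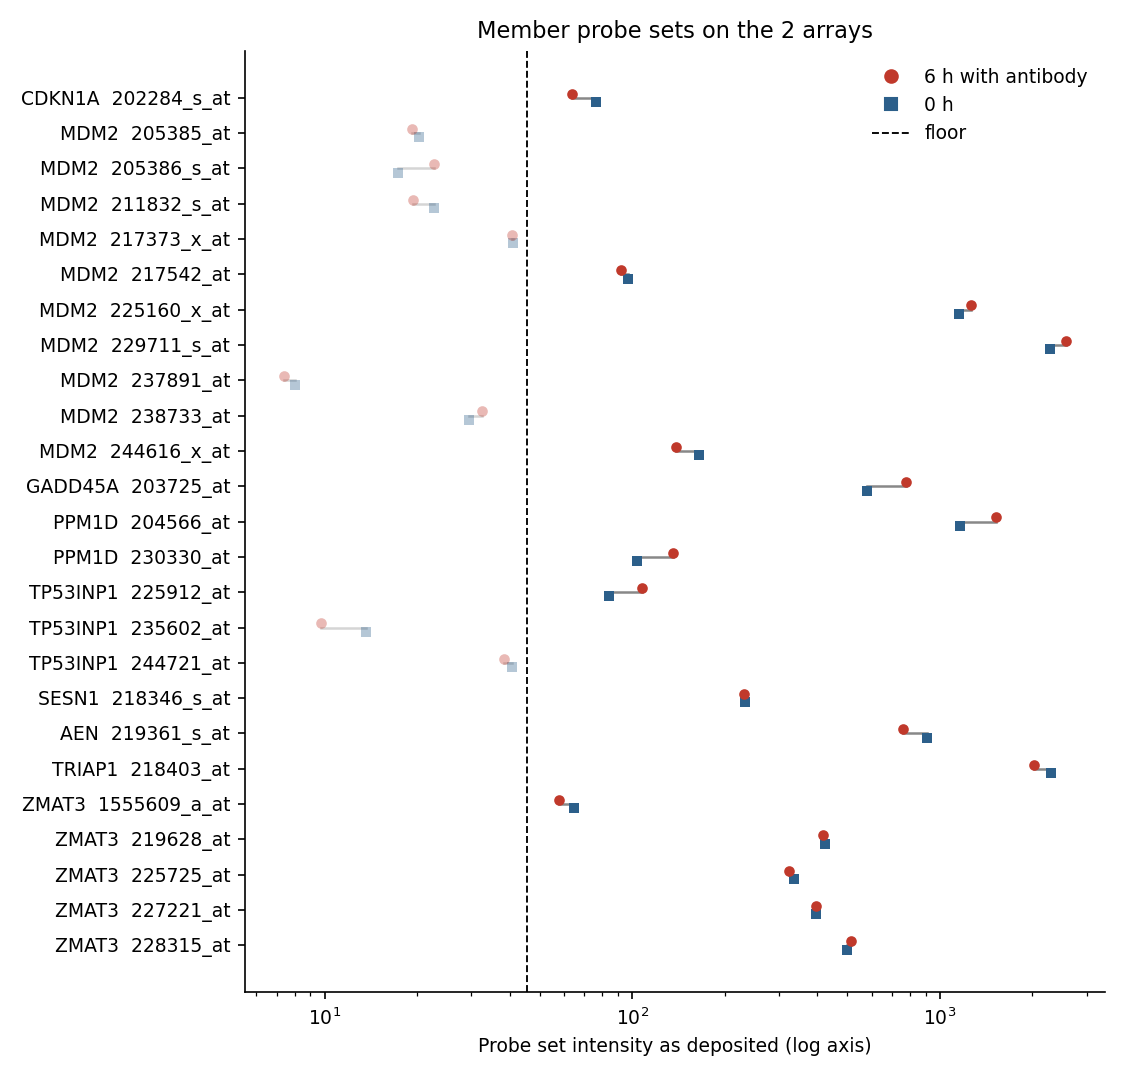
Intensity of the 25 member probe sets (rows, gene and probe set name) on a log axis, with circles for the array at 6 h and squares for the array at 0 h. The dashed line is the floor of 45.4, and the 8 sets left of it, drawn pale, were not measured. Circles lie clearly right of squares for GADD45A, PPM1D and the measured set of TP53INP1, and left of them for CDKN1A, AEN and TRIAP1.

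CDKN1A has 1 probe set, 202284_s_at, with an intensity of 63.5 at 6 h and 76.3 at 0 h. The 6 h value was thus 0.83 of the 0 h value, a log2 difference of -0.26. Both values are close to the floor. Measured genes were put into 4 equal classes of mean brightness, and in the dimmest class, where CDKN1A lies, 21.8% differed by as much in either direction. A floor set higher, at the 60th percentile, gave CDKN1A a difference of -0.07. The arrest gene was therefore dim on both arrays, and its difference is of a size common among dim genes.

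The feedback genes differed from each other. PPM1D had intensities of 1520 at 6 h and 1162 at 0 h on its bright set, a 1.31-fold difference. Its dimmer set gave 136.1 at 6 h and 103.9 at 0 h. The log2 differences of these sets were 0.387 and 0.389, so both sets of PPM1D gave the same size. Of the genes in the brightest class, 1.71% differed by as much as PPM1D in either direction.

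MDM2 has 10 probe sets, of which 4 were measured. The brightest, 229711_s_at, had intensities of 2566 at 6 h and 2279 at 0 h, a log2 difference of 0.17. The next, 225160_x_at, had 1268 at 6 h and 1152 at 0 h, a difference of 0.14. Both bright sets were thus slightly higher at 6 h. The dimmer sets were lower at 6 h: 244616_x_at had 139.0 at 6 h and 165.2 at 0 h (-0.25), and 217542_at had 91.9 at 6 h and 97.1 at 0 h (-0.08). The SD over the 4 sets was 0.20, their median difference was 0.03, and with probe sets ending in _x_at or _s_at left out only the set at -0.08 represents the gene. No direction is settled for MDM2. Its 6 unmeasured sets had intensities of 7.38 to 40.8 at 6 h and 7.997 to 40.8 at 0 h.

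GADD45A, a growth arrest and DNA damage gene whose protein activates the kinase MAP3K4, had the highest difference of the 9. Its 1 probe set, 203725_at, had an intensity of 774.3 at 6 h and 581.2 at 0 h, a 1.33-fold difference and 0.41 on the log2 scale. In its brightness class 2.87% of genes differed by as much in either direction, and 97.1% of all measured genes had a lower difference. The annotation names this 1 probe set for GADD45A, so its value has no check within the arrays.

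TP53INP1, a stress-induced nuclear protein gene linked to cell death and autophagy, had intensities of 107.6 at 6 h and 84.4 at 0 h on its measured set, 1.28-fold and 0.35 on the log2 scale. This is a dim set, in the dimmest class, where 11.7% of genes differed by as much. The other sets of TP53INP1 lay below the floor, at 9.71 and 38.3 at 6 h and at 13.6 and 40.6 at 0 h, so no second set bears on its difference. SESN1, a sestrin that restrains growth signalling through mTORC1, had 230.9 at 6 h and 232.5 at 0 h, a log2 difference of -0.01. For SESN1 the arrays were nearly equal.

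Of the members tied to cell death and survival, AEN, which encodes a nuclease that promotes apoptosis, had intensities of 760.7 at 6 h and 907.7 at 0 h. The log2 difference was -0.25, and 14.2% of genes in its class differed by as much. TRIAP1, a small protein of the mitochondrial intermembrane space that counters apoptosis, had 2026 at 6 h and 2307 at 0 h, a log2 difference of -0.19. In the brightest class 17.0% of genes differed by as much as TRIAP1. The death-promoting and the death-countering member were thus both lower at 6 h, each on 1 probe set.

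ZMAT3, a zinc finger RNA-binding protein gene, was the member with the most measured probe sets, 5 of 5. Its brightest set had intensities of 513.4 at 6 h and 499.3 at 0 h, a log2 difference of 0.04. The other bright sets differed by 0.006, -0.03 and -0.05, and the dim set 1555609_a_at, at 57.8 at 6 h and 64.6 at 0 h, by -0.16. The SD over the 5 sets was 0.08. ZMAT3 differed between the arrays by less than its own probe sets differed among themselves.

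**Figure D2:**
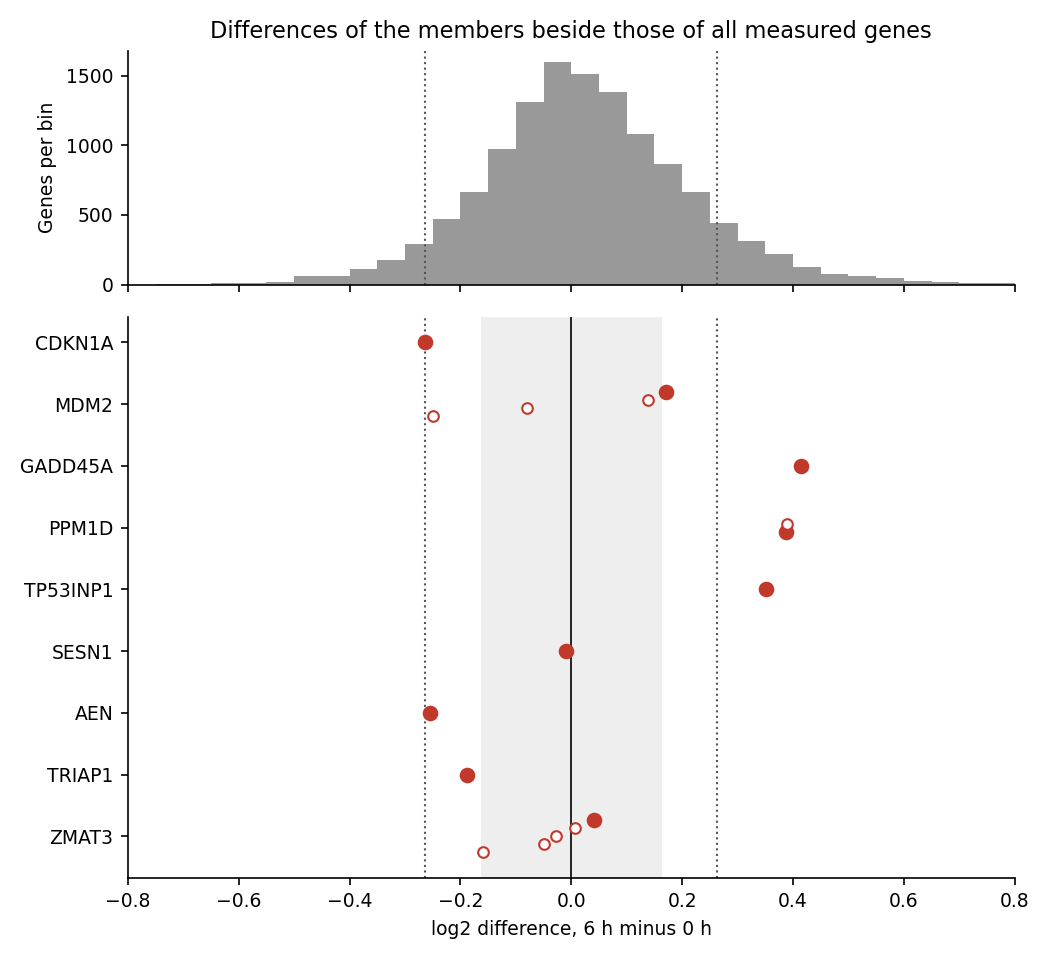
Upper panel, histogram of the log2 difference (6 h minus 0 h, bins of 0.05) over 12669 measured genes. Lower panel, each measured probe set of the 9 members on the same axis, filled for the brightest set of a gene and open for the others, with the band of 1 pooled SD between sets of a gene (0.16) in grey and 1.2-fold as dotted lines. GADD45A, PPM1D and TP53INP1 lie right of the upper dotted line, and the sets of MDM2 spread from -0.25 to 0.17.

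Counted on the brightest set of each gene, 3 of the 9 members were at least 1.2-fold higher at 6 h, against 9.9% of the 12669 measured genes, and 1 (CDKN1A) was at least 1.2-fold lower, against 5.29%. At 1.5-fold 0 members were higher, against 0.75% of genes, and 0 were lower, against 0.182%. The median over the 9 was 0.04, close to the median of 0.02 over all measured genes. The SD over the 9 was 0.27, against 0.19 over all genes. Over all measured probe sets of the members 8 differences were above 0 and 9 below. Scaling between the arrays moves the background: of genes past 1.2-fold 65.2% were higher as deposited, 56.4% after centring on the median, 54.7% after a loess curve was taken off and 51.2% after quantile normalization. Of the few members past 1.2-fold 75% were higher as deposited (3 higher, 1 lower). It was 60% after centring or quantile normalization (3 higher, 2 lower), where AEN joined CDKN1A on the lower side. After the loess step it was again 75%, but the 1 lower member was AEN (-0.30) and CDKN1A (-0.26) fell just short. Such scaling is not stated for these arrays. Under each of the 8 alternative settings in which they could be given, GADD45A, PPM1D and TP53INP1 remained above 0, at 0.36 to 0.41, 0.34 to 0.39 and 0.30 to 0.35. A floor at percentile 40 or 60 or a different choice of sets left GADD45A and TP53INP1 as reported, each having 1 measured set. CDKN1A, SESN1, AEN and TRIAP1 remained below 0, while MDM2 and ZMAT3 changed sign.

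**Figure D3:**
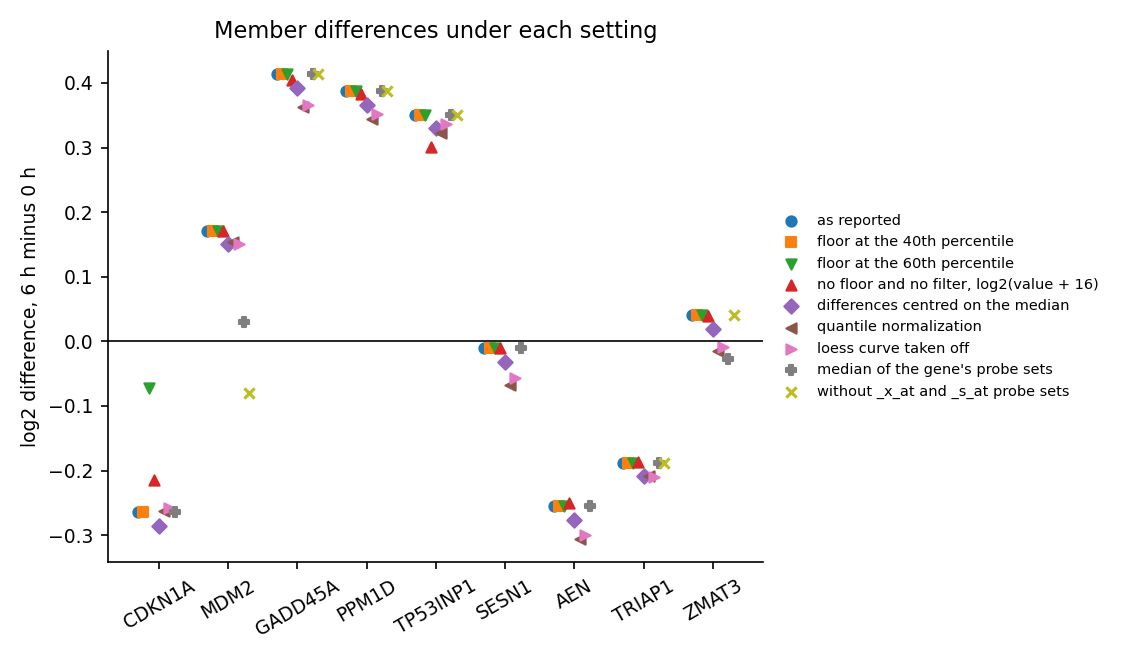
Log2 difference (6 h minus 0 h) of each member under the setting reported and under 8 alternatives, 1 marker per setting. The 3 higher members stay between 0.30 and 0.41, AEN lies between -0.31 and -0.25, and the markers of MDM2 and ZMAT3 fall on both sides of 0.

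Other targets of p53, in a list of 57 genes of which 51 have a probe set here, were more often higher than lower. Of 47 measured, 38 had a difference above 0 and 9 below, with a median of 0.14, where 54.3% of all measured genes lay above 0. At least 1.2-fold higher were 15 of them, and 0 were lower by that size, beside the 9.9% and 5.29% of all genes given above. After quantile normalization the counts were 9 higher and 1 lower, beside 7.503% and 7.148% of all genes under that scaling. The list was drawn up with earlier results of these arrays known, so it is no independent evidence of a direction.

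Among DNA repair targets (7 measured, median 0.31), 4 were at least 1.2-fold higher, beside 9.9% of all genes. The translesion polymerase genes REV3L and POLH differed by 0.43 and 0.37, the damage recognition gene DDB2 by 0.32 and the ribonucleotide reductase subunit gene RRM2B by 0.31. REV3L had intensities of 1106 at 6 h and 823.3 at 0 h, and its second set differed by 0.22. The 5 measured sets of POLH differed by 0.07 to 0.41.

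Among cell death targets (14 measured, median 0.16), 4 were at least 1.2-fold higher and 0 lower, beside 9.9% and 5.29% of all genes. The count of higher genes was 1 after quantile normalization, where 1 was lower, beside 7.503% and 7.148% of all genes. With the median of a gene's sets 1 was higher, beside 8.233% of all genes. With a floor at percentile 40, 2 were lower, beside 6.759% of all genes. The death receptor gene TNFRSF10A had intensities of 921.7 at 6 h and 693.9 at 0 h, with 3 sets at 0.38 to 0.47. Its relative TNFRSF10B differed by 0.29, with 3 sets at 0.15 to 0.29. PIDD1, which encodes a death domain protein, differed by 0.26 on its brighter set and by 0.11 on the other. The apoptosome gene APAF1 differed by 0.31 on its brightest set but by -0.32 on the other.

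Targets in metabolism and secreted factors (16 measured, median 0.15) held the 3 genes of the list past 1.5-fold, beside 0.75% of all genes. SESN2, the sestrin paralog of SESN1, had 403.1 at 6 h and 208.7 at 0 h, and both of its sets differed by 0.95, where SESN1 differed by -0.01. The cytokine gene GDF15 was at 82.4 at 6 h and below the floor at 0 h, at least 1.81-fold higher. The KIT ligand gene KITLG had 117.6 at 6 h and 76.8 at 0 h on its 1 measured set, and VWCE differed by 0.38. SESN2 and GDF15 are also known targets of the stress factor ATF4. In this list 5 genes were at least 1.2-fold higher, beside 9.9% of all genes. Without _x_at and _s_at sets it was 2 of 11, beside 11.29% of all genes under that setting.

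Of the arrest and feedback targets (10 measured, median 0.10), 2 were at least 1.2-fold higher, beside 9.9% of all genes. Under 6 of the 8 alternatives it was 1, beside 6.271% to 9.645% of all genes under those settings. The cyclin G2 gene CCNG2 had 1122 at 6 h and 929.1 at 0 h, and its 4 measured sets differed by 0.11 to 0.39. The polo-like kinase gene PLK3 differed by 0.30 on 1 set and -0.28 on the other. SFN, which encodes the checkpoint protein stratifin, differed by 0.14 on its brighter measured set and by 0.32 on the other. PRDM1, a transcriptional repressor gene, differed by -0.14 on its brighter measured set and by 0.05 on the other.

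Regulators of p53 (21 measured) had a median of 0.06, with 5 at least 1.2-fold higher and 0 lower, beside 9.9% and 5.29% of all genes. Under 6 of the 8 alternatives 2 or 3 were higher, beside 6.271% to 11.29% of all genes under those settings. Without _x_at and _s_at sets the 3 were of 13 measured. MDM4, the MDM2 paralog that binds and inhibits p53, had intensities of 1521 at 6 h and 1216 at 0 h on its brightest set, a log2 difference of 0.32. Its 5 measured sets ranged from -0.20 to 0.40, with the 3 brighter ones above 0. The acetyltransferase gene EP300 differed by 0.36 with its sets at 0.34 and 0.36, the deacetylase gene SIRT1 by 0.32 and the kinase gene HIPK2 by 0.27, the last with 7 sets between -0.19 and 0.40.

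Paralogs and partners of the members (18 measured, median 0.09) held 6 genes at least 1.2-fold higher and 0 lower. Over all genes it was 9.9% and 5.29%. Of these 6, SESN2 is also in the metabolism list and MDM4 also among the regulators, so the lists overlap. Among the relatives of CDKN1A, the inhibitor gene CDKN1B had 1574 at 6 h and 1255 at 0 h, a log2 difference of 0.33, while CDKN1A was at -0.26. CDKN1C was at 67.4 at 6 h and below the floor at 0 h, at least 1.48-fold higher. Its 3 measured sets differed by 0.13 to 0.57. The inhibitor genes of this family were therefore on opposite sides of 0, each on 1 set or on dim sets.

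Genes on which p21 and p53 act were also counted. Cyclins, kinases and other proteins that p21 binds or that act with them (11 measured) had a median of 0.006, with 1 gene at least 1.2-fold higher and 1 lower, against 9.9% and 5.29% of all genes. CCNE1, a G1/S cyclin gene, had 696.8 at 6 h and 904.7 at 0 h, a log2 difference of -0.38. CCNE2 differed by -0.19 on its brighter set and by -0.64 on the other. RB1, the retinoblastoma gene, differed by 0.27. The D cyclin gene CCND3 differed by -0.19 on its brighter set and by 0.03 on the other. Of 20 measured G2/M genes that p53 represses through p21, 18 were above 0, beside 54.3% of all measured genes, with a median of 0.11. At 1.2-fold 0 were higher and 0 lower, against the same 9.9% and 5.29%. These G2/M genes were led by the mitotic kinesin gene KIF23 (0.25), the proliferation marker MKI67 (0.19), CENPF (0.18) and PLK1 (0.15).

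**Figure D4:**
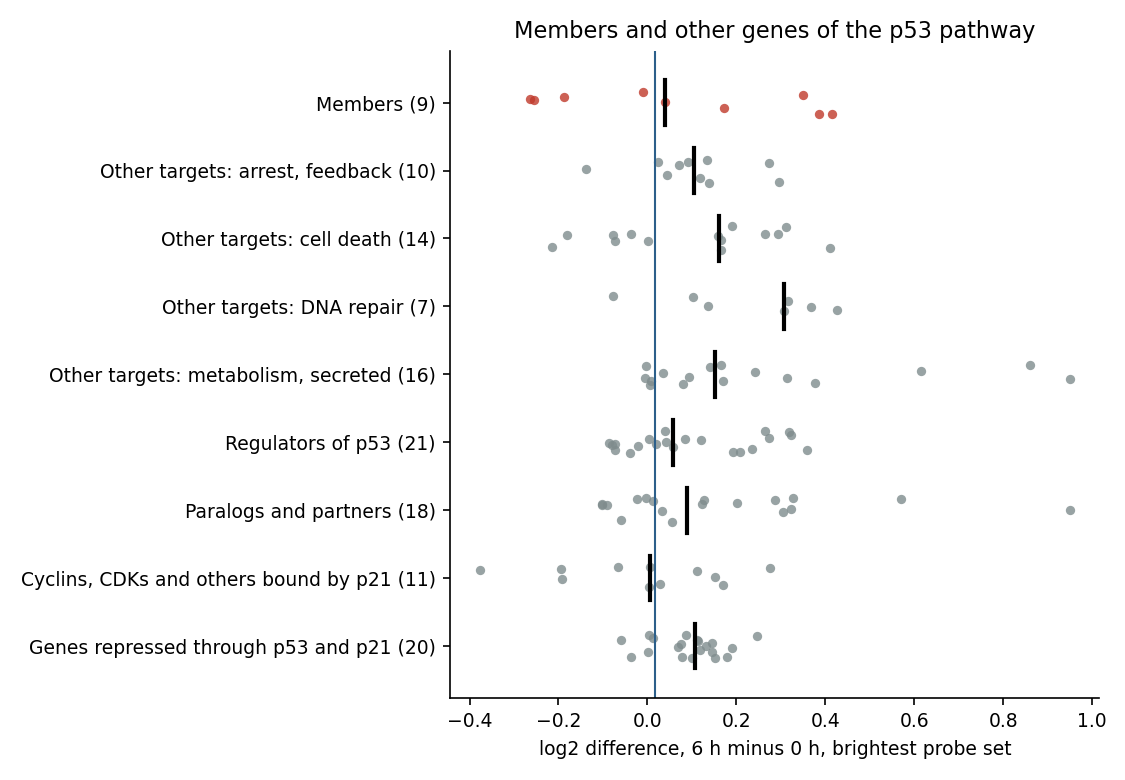
Log2 difference (6 h minus 0 h) of each measured gene on its brightest probe set, 1 point per gene, for the 9 members (red) and 8 other lists of the p53 pathway (grey), with the number measured in brackets. Black bars are list medians and the blue line is the median of all measured genes, 0.02. The 9 members spread from -0.26 to 0.41, and the DNA repair targets have the highest median, 0.31.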

How the data were processed

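RNA of CL1-0 cells was measured on 2 arrays, 1 at 6 h and 1 at 0 h, grouped by the samples' titles. Values deposited by the authors are intensity per probe set, not on a log scale. The submitters' processing notes name MAS5; version, parameters and any scaling are not given in the sources used here. This method subtracts local background, so dim values are noisy, and the number of arrays limits the precision.

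Probe sets were named through the platform annotation, with symbols updated by Entrez identifier through RefSeq (41043 of 41097 sets with 1 gene matched). The floor was the 50th percentile of the pooled values, and a set above it on at least 1 array counted as measured (28239 sets). A gene was represented by its measured set with the highest mean log2. The 4 brightness classes were formed from that mean over 12669 genes. Members and lists were chosen with earlier results of these data known. The text names all 9 members, MDM4, and, per list, the 4 genes that differed most in either direction. Some genes of the lists are not reported here.

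Tried as alternatives were a floor at percentile 40 or 60, no floor with log2(value + 16), quantile normalization, centring on the median, a loess curve (span 0.3), the median of a gene's sets, and leaving out sets ending in _x_at or _s_at. An alternative was taken as moving a value when it did so by over the SD of 0.16 between sets of a gene, or a count by over 1.5 times. The floor, centring, quantile and loess steps were tested on simulated differences in brighter probe sets with little added noise. That test did not cover sets as dim as that of CDKN1A, the choice of set or the counts. Python 3.11.15, pandas 2.3.3, numpy 2.4.6 and statsmodels 0.14.6 were used.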

Additional observations from a re-analysis of the deposited data

How the results depend on the processing

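With 1 array at each time there is no replicate to leave out and no significance test. No paired analysis was possible because each group has 1 array. The count of 3 members at least 1.2-fold higher was the same under all 8 alternatives. Over all genes the share was 6.271% (no floor) to 11.29% (without _x_at and _s_at sets). In the latter setting only 6 members were measured, and their median was 0.20. Under the settings with all 9 members the median lay between -0.02 and 0.04. The member count at least 1.2-fold lower (1 as reported) was 0 with a floor at percentile 60 and with no floor, and 2 after median centring or quantile normalization. It was also 0 of 6 without _x_at and _s_at sets, but that setting leaves out CDKN1A and AEN. It was 1 after loess, with AEN in place of CDKN1A. Over all genes the share lower was 3.832% (floor at percentile 60) to 7.148% (quantile normalization). CDKN1A was at -0.07 with a floor at percentile 60, where its 6 h value lies at the floor, and MDM2 at -0.08 without _x_at and _s_at sets, which leaves its dimmest measured set. The cause of the other shifts was not tested. CDKN1A, AEN and SESN1 have no value without _x_at and _s_at sets.

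Shares of all genes past 1.2-fold moved too. Higher were 9.79% with a floor at percentile 40, 9.645% at 60, 6.271% with no floor and 8.469% after centring. It was 7.503% after quantile, 7.996% after loess, 8.233% with the median of sets and 11.29% without _x_at and _s_at sets. Lower were, in that order, 6.759%, 3.832%, 4.248%, 6.544%, 7.148%, 6.622%, 4.602% and 5.657%. Beside these shares, counts at 1.2-fold moved by over 1.5 times for these lists. The 57 other targets had 9 higher (15 as reported) after quantile normalization, and 2 lower with a floor at percentile 40 and 1 lower after quantile normalization (0 as reported). Arrest and feedback targets had 1 higher (2 as reported) with a floor at percentile 60, no floor, centring, quantile, loess and the median of sets. Death targets had 1 higher (4 as reported) after quantile normalization and with the median of sets, and 2 lower with a floor at percentile 40 and 1 lower after quantile normalization (0 as reported). Metabolism and secreted targets had 2 higher of 11 measured (5 of 16 as reported) without _x_at and _s_at sets. Genes bound by p21 had 0 higher (1 as reported) after centring, quantile or loess, and 2 lower (1 as reported) with a floor at percentile 40 or the median of sets. Paralogs had 1 lower (0 as reported) with a floor at percentile 40. Regulators had 3 higher (5 as reported) with no floor, centring, quantile and loess, and 2 with the median of sets. Without _x_at and _s_at sets it was 3 of 13 measured. The other 209 of 240 list and group values moved by less.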
